A study of Homo sapiens with 16 samples.

Results

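The 4 human HOX gene clusters were read here in HEK293 cells under hyperosmotic stress. The cluster members were the 39 protein-coding genes of GENCODE v44 whose symbols are HOXA, HOXB, HOXC or HOXD with a number, and the measured units were the deposited counting intervals that lie from 20 kb before to 20 kb after each cluster. The rule gave 108 of the 74404 intervals of the table, of which 27 were in HOXA, 36 in HOXB, 30 in HOXC and 15 in HOXD. On hg38 the genes span chr7:27092993-27200091 (HOXA, minus strand), chr17:48528526-48728750 (HOXB, minus strand), chr12:53938831-54056030 (HOXC, plus strand) and chr2:176092721-176190907 (HOXD, plus strand). An interval within 1 kb of an annotated start was called a promoter interval of that gene; 32 of the 39 genes had at least 1, and HOXA2, HOXA7, HOXB1, HOXC12, HOXD4, HOXD9 and HOXD12 had none.

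The assay was CUT&Tag, in which an antibody directs a transposase to cut chromatin beside a bound protein or a modified histone. The 16 libraries fall into 8 groups of 2: CTCF, RAD21, YAP1 and the histone mark H3K27ac, each from vehicle-treated cells and from cells given 200 mM sorbitol for 1 h. All the cells were HEK293, a human embryonic kidney line, carrying an eGFP-YAP fusion and starved of serum for 1 h per the series' design, and YAP1 was read with an antibody to GFP, so it reports the fusion protein. In the column names the vehicle libraries carry an earlier time than the sorbitol libraries, so treatment and time cannot be told apart. The labels do not say whether replicates were separate cultures, so p-values measure only the spread between these libraries, which may be technical, and no control library with an unspecific IgG was used here. In a bulk assay, fewer cells with a bound site and less signal per cell cannot be told apart.

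HOX genes encode homeodomain transcription factors that assign position along the body axis, and within a cluster their order on the chromosome follows their order of expression along that axis. Genes with the same number in different clusters are paralogs, from low numbers expressed toward the head to high numbers expressed toward the tail. Polycomb complexes hold silent HOX genes in a repressed domain, while active HOX promoters carry H3K27ac, a mark of active promoters and enhancers. CTCF is a zinc-finger protein that stops the loop-extruding cohesin ring, of which RAD21 is a subunit, and CTCF sites inside HOX clusters are known as boundaries between active and repressed genes. YAP1 is a transcriptional coactivator of the Hippo pathway that reaches DNA mainly through TEAD factors.

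The sequences that the CTCF results turn on are the best matches to the CTCF core consensus in the 8 intervals described in most detail. Each was read from the hg38 reference on the strand of the match, and the capitals mark the stretch matched to the consensus.
HOXA7 to HOXA9: aacggcggCCAGCAGATGGCAGtgtggctc
HOXB8 to HOXB9: cagagcagCCGCTAGATGGCACccttgctc
HOXC5: ccacatagGCACCAGGTGTCGCtgtgggct
EVX2: tgccgctgCCGCCAGGGGGCGCcccggggc
HOXD3 intron, first match: cgcctcgtCCAGGAGGAGGCGCtgtaggac
HOXD3 intron, second match: tccgcgctCCCGGAGGGGGCGCgatttcct
HOXD12: cccaatgcCCAGGAGATGGCGAgcgcgctc
HOXB3 intron: cggagctgCCAGTAGAGTCCGCcttagacc
HOXC8: cccaaagtCCTGCAGGCGGCGGcggaatag

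The HOXA7 to HOXA9 match, with its capitals at chr7:27161136-27161149 on the minus strand, had 0 mismatches to the consensus. The matches of EVX2 (chr2:176079990-176080003, minus strand) and of HOXB8 to HOXB9 (chr17:48618744-48618757, minus strand) had 1 mismatch. The other printed matches had 2: HOXC5 at chr12:54032742-54032755, HOXC8 at chr12:54005702-54005715 and the HOXD3 intron at chr2:176140645-176140658 and chr2:176140908-176140921 on the plus strand, HOXD12 at chr2:176097757-176097770 and the HOXB3 intron at chr17:48585535-48585548 on the minus strand. Both strands were searched, for this motif alone. Allowing 1 mismatch, 10 of the 108 HOX intervals (9.3%) held the consensus, against 18.4% of all intervals; 5 were in HOXA, 2 in HOXB, 2 in HOXC and 1 in HOXD. Allowing 2 mismatches, 41 HOX intervals held it, against 43.2% of all. A match describes letters and not binding, and the intervals upstream of HOXD13 and in HOXB13, which carried CTCF reads, had no match closer than 3 mismatches.

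In vehicle, most HOX intervals had relatively more of either CTCF or H3K27ac, which does not mean that the other was absent. Tested against each other in the vehicle libraries, each on the scale of its own libraries, 17 of 107 tested HOX intervals had relatively more CTCF and 82 had relatively more H3K27ac (edgeR quasi-likelihood test, Benjamini-Hochberg adjusted p under 0.05 over the whole table). Of all tested intervals 84.5% passed, 43.0% toward CTCF and 41.5% toward H3K27ac. HOXB held 9 of the 17 CTCF-led intervals, HOXD 4, HOXA 2 and HOXC 2. Of the 17, 15 were not HOX promoter intervals, and the other two were in the promoters of HOXC5 and HOXB5. Across the 108 intervals the vehicle levels of CTCF and RAD21 had Pearson's r = 0.62 (Spearman's rho = 0.63), those of YAP1 and H3K27ac r = 0.66 (rho = 0.61), and those of CTCF and H3K27ac r = -0.18 (rho = -0.01); neighbouring intervals share width, base composition and libraries, so these are descriptions.

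**Figure D1:**
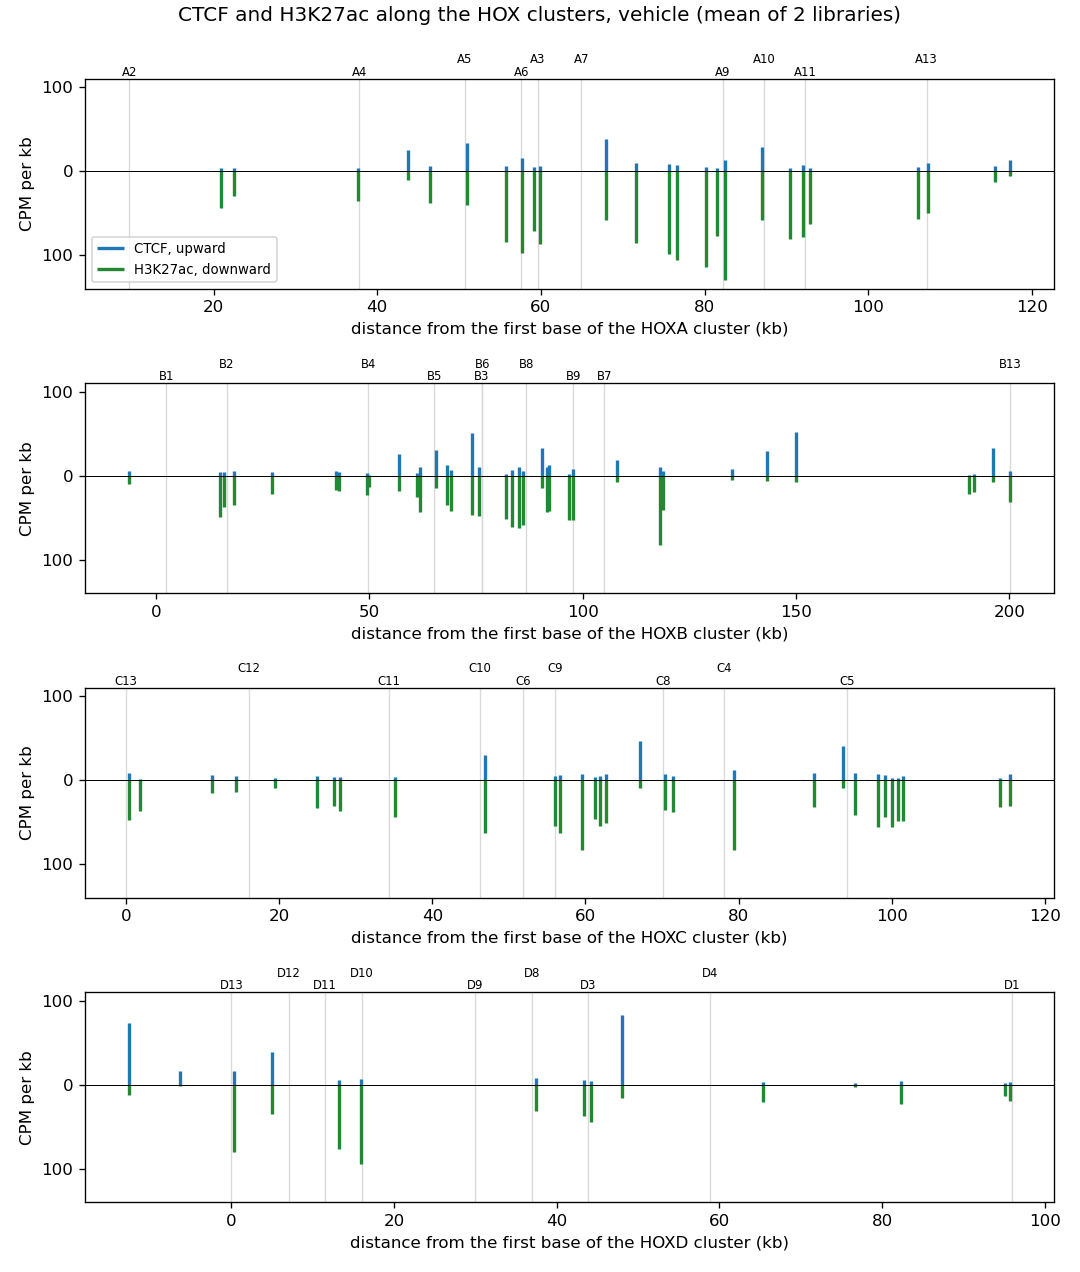
Vehicle levels of CTCF (bars upward) and H3K27ac (bars downward) along the 4 HOX clusters, as CPM per kb of interval (mean of 2 libraries) against distance from the first base of each cluster in kb; grey lines are HOX gene starts. CTCF is highest at a few intervals, with the HOXD3 intron at 83.0, and H3K27ac reaches 130 at the interval shared by HOXA9 and HOXA10.

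Levels are given as CPM (counts divided by the scaled library size in M counts) per kb of interval, mean ± SD of the 2 vehicle libraries, and their rank among all 74404 intervals is given because CPM is not comparable between antibodies. The strongest CTCF interval of HOXD lay in an intron of HOXD3, a paralog of the anterior groups, at chr2:176140302-176141212, with 83.0 ± 2.28 CPM per kb (percentile 99.5 of all intervals). In HOXB it lay in an intron of the non-coding gene LINC02086 at chr17:48678121-48678859, with 52.3 ± 6.17 CPM per kb (98.2). In HOXC it lay upstream of HOXC8, a gene of thoracic segments, at chr12:54005591-54006300, with 46.9 ± 1.64 CPM per kb (97.6). In HOXA it lay between HOXA7 and HOXA9 at chr7:27160170-27161772, with 38.6 ± 4.93 CPM per kb (96.0). HOXD therefore had the highest CTCF interval beyond the spread of the libraries, while the leading intervals of HOXB and HOXC differed by less than the SD of the HOXB value.

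RAD21 in vehicle was also highest at the HOXD3 intron, with 29.5 ± 9.28 CPM per kb (percentile 98.5). The leading RAD21 interval of HOXB was in a HOXB3 intron at chr17:48585131-48585981, with 25.9 ± 3.23 CPM per kb (97.8). The leading one of HOXA was in a HOXA3 intron at chr7:27136545-27136901, with 25.5 ± 0.697 CPM per kb (97.7). In HOXC it was the HOXC10 promoter, with 16.7 ± 4.33 CPM per kb (92.3). The HOXD3, HOXB3 and HOXA3 values lay within the spread of the HOXD3 libraries. RAD21 relative to CTCF differed between HOX intervals in vehicle: 24 of 77 tested intervals passed (30.8% of the whole table), of which 14 had relatively more RAD21 and 10 relatively more CTCF. The 14 were all H3K27ac-led, among them HOXC4 at chr12:54052303-54053728 (log2 difference 2.10 ± 0.38 SE, adjusted p 0.00099) and HOXA3 at chr7:27113396-27114339 (2.11 ± 0.42, adjusted p 0.0019), while 8 of the 10 were CTCF-led, led by EVX2 (-1.78 ± 0.22, adjusted p 5.3e-05). With GC-corrected offsets the split was 8 and 8 (9.62% and 15.0% of all tested intervals), and with scaling to total counts 5 and 13 (3.51% and 27.3%); both sortings use the same CTCF vehicle libraries. Without CTCF vehicle replicate 1 the test called 8 intervals, and without replicate 2 it called 12.

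YAP1 levels in vehicle are given for HOX promoter intervals. The leading interval, at chr12:54017534-54018934 in introns of HOXC4 and HOXC6 and within 1 kb of a HOXC4 start, had 22.9 ± 0.362 CPM per kb (percentile 98.3 of all intervals). HOXB3 at chr17:48589967-48590774 had 16.6 ± 1.42 CPM per kb, HOXD13 had 13.1 ± 0.646 and the interval shared by HOXA9 and HOXA10 had 13.0 ± 0.153. The HOXC4 interval stood above the others by more than the spread of the libraries, and the HOXD13 and HOXA9 to HOXA10 values did not differ beyond it. The same HOXC4 interval was among the strongest H3K27ac intervals of the clusters. Averaged over vehicle and sorbitol libraries, the YAP1 interval that led HOXB by CPM per kb began at chr17:48646002, outside HOX promoters.

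H3K27ac in vehicle marked promoters in all 4 clusters, and each gene is described by its promoter interval with the most reads. That interval need not have the most CPM per kb. Averaged over vehicle and sorbitol libraries, the leading intervals by CPM per kb began at chr7:27172994 in HOXA and chr12:53998296 in HOXC. In HOXB the leading interval began at chr17:48646002, outside HOX promoters, and in HOXD it was that of HOXD10. HOXA10, known from blood progenitors and the uterus, had 130 ± 1.46 CPM per kb in an interval that also starts a HOXA9 transcript, and HOXA9, a regulator of blood stem cells, had 106 ± 5.33 in its interval with the most reads. The first interval is a promoter interval of both genes and holds the HOXA9 gene start, so these values do not rank HOXA10 above HOXA9. HOXD10, of the lumbar and limb region, followed with 94.9 ± 9.37, a gap to HOXA9 somewhat larger than either SD. Then came HOXA6 with 84.7 ± 6.91, HOXC4 with 83.0 ± 0.0401, HOXD13, a digit-patterning gene, with 80.1 ± 0.102, and HOXD11, a kidney and forelimb gene, with 77.0 ± 6.4. HOXC4 and HOXD13 lay within the SD of HOXA6 and within that of HOXD11, while HOXA6 and HOXD11 differed by more than the SD of either. At the other end stood HOXB5 with 14.7 ± 0.191, HOXD1 with 19.7 ± 2.14 and HOXB4, a gene of blood stem cells, with 23.2 ± 5.77, and HOXD1 and HOXB4 did not differ beyond the HOXB4 spread.

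Within each cluster the order of H3K27ac did not follow gene number alone. In HOXA the low genes included HOXA4 (36.1 ± 1.94) and HOXA5 (40.6 ± 0.382). In HOXB the highest were HOXB7 (61.2 ± 5.77), HOXB8 (58.6 ± 6.9) and HOXB9 (52.9 ± 1.81), and HOXB13, a prostate and hindgut gene, was among the lowest with 31.0 ± 0.484. In HOXC the genes below HOXC4 were HOXC10 (63.0 ± 1.98) and HOXC6 (62.9 ± 9.06, in an interval shared with HOXC9), and the lowest were HOXC8 (36.0 ± 7.69), HOXC5 (41.7 ± 2.88) and HOXC11 (44.5 ± 3.05). In HOXD the lowest after HOXD1 were HOXD8 (31.7 ± 3.31) and HOXD3 (44.0 ± 3.81). The median over genes was 43.6 CPM per kb in paralog groups 1 to 4 (9 of 12 genes with a promoter interval), 41.9 in groups 5 to 8 (10 of 11) and 62.8 in groups 9 and above (13 of 16). The lowest of the 32 genes, HOXB5, was still at percentile 71.2 of all intervals.

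With sorbitol, CTCF fell at 5 HOX intervals outside HOX gene promoters and rose at 24, of which 19 were HOX promoter intervals; the rises depend on the scaling and turn to 4 with libraries scaled to total counts. Fold changes are log2 sorbitol over vehicle ± SE from a fit over the whole table, with library sizes set by the trimmed mean of M values (TMM), and 74 of 108 HOX intervals passed the count filter. Of these, 24 rose and 5 fell, which is 39.2% called, against 40.2% of all tested intervals (19.5% higher, 20.7% lower), so the share called was close to that of the table while the balance differed. The median log2 change was 0.61 over HOX intervals and -0.06 over all tested intervals. This direction depends on the scaling: with libraries scaled to total counts the median of all tested CTCF intervals moved to -1.04, 4 HOX intervals rose and 21 fell (5.37% and 53.6% of all tested intervals), and their median was -0.37, still above that of all intervals. With GC-corrected offsets 17 rose and 8 fell (13.9% and 17.2% of all), with a HOX median of 0.18 against -0.13. Without vehicle replicate 1 the CTCF calls numbered 19 and without vehicle replicate 2 they numbered 16.

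**Figure D2:**
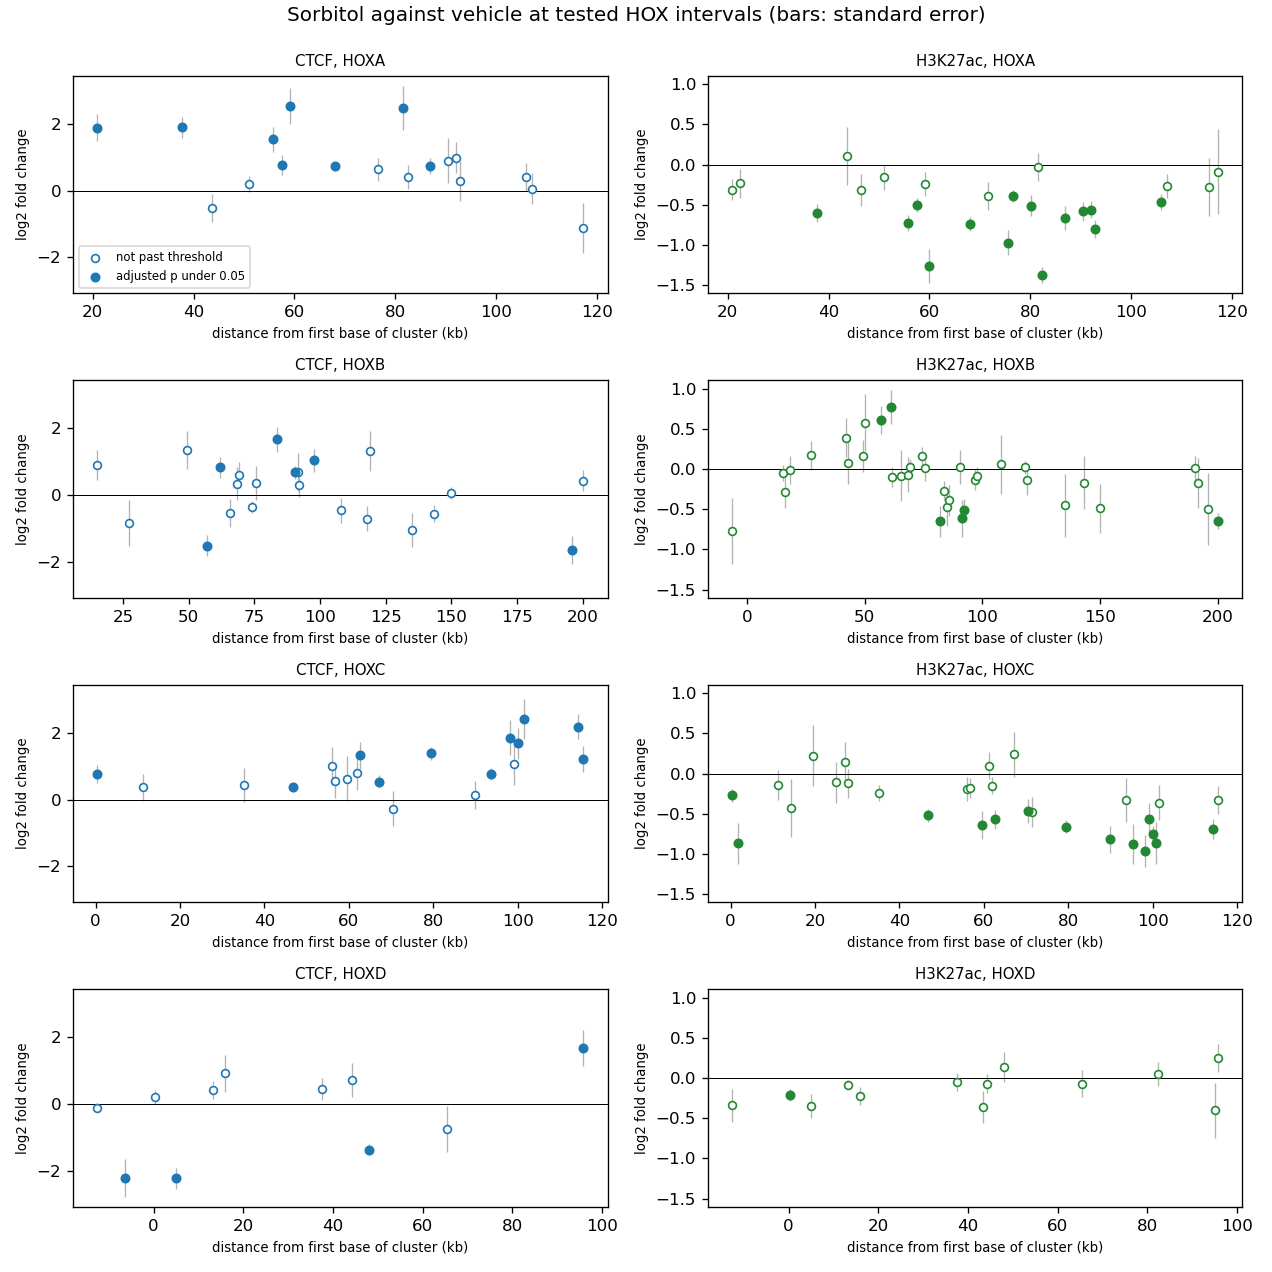
Log2 change with sorbitol of CTCF (left) and H3K27ac (right) at tested HOX intervals, against distance from the first base of each cluster in kb, with filled points for adjusted p under 0.05 and bars of 1 SE. CTCF points lie mostly above 0 in HOXA and HOXC and include the falls in HOXB and HOXD, while H3K27ac points lie mostly below 0 in HOXA and HOXC; with scaling to total counts the CTCF medians of all 4 clusters turn negative and the H3K27ac medians of HOXB and HOXD turn positive.

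The falls were in HOXD and HOXB, and all 5 were also called with scaling to total counts and with GC-corrected offsets; without vehicle replicate 2, 4 falls were called, of which 2 were in HOXD. At the HOXD3 intron CTCF was 74.1 and 77.0 CPM in the vehicle libraries and 28.3 and 30.1 in the sorbitol libraries, a log2 change of -1.37 ± 0.16 (adjusted p 1.1e-06). At chr2:176097382-176098141, upstream of HOXD12, it was 24.5 and 35.2 CPM against 5.47 and 7.06, a change of -2.23 ± 0.32 (adjusted p 1.1e-05). At chr2:176086158-176086672, between EVX2 and HOXD13, it was 6.86 and 9.32 against 1.99 and 1.41, a change of -2.22 ± 0.57 (adjusted p 0.004). In all 3 HOXD intervals both sorbitol libraries lay below both vehicle libraries, by more than the difference between replicates. In HOXB the HOXB3 intron interval had 23.1 and 21.4 CPM against 5.97 and 9.42 (-1.52 ± 0.31, adjusted p 0.00055). The interval at chr17:48724429-48724800, over exons of HOXB13 and of the neighbouring PRAC2, had 11.2 and 13.4 against 2.98 and 4.71 (-1.65 ± 0.42, adjusted p 0.0037). None of the 5 falls was in a HOX promoter interval, although the HOXB13 one holds the start of the microRNA gene MIR3185, and none was in HOXA or HOXC, where 20 intervals each were tested.

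At 3 other strong CTCF sites the call depended on the scaling: none passed on the TMM scale, and all 3 passed as lower on total counts. At EVX2, the even-skipped-type homeobox gene beside HOXD13, the interval chr2:176079569-176080724 had 83.3 and 86.8 CPM in vehicle and 75.1 and 81.9 in sorbitol, a change of -0.11 ± 0.14 (adjusted p 0.52), which became -0.98 with GC-corrected offsets (adjusted p 1.1e-05) and -1.09 on total counts (adjusted p 1.8e-06). It is the highest CTCF interval of the clusters by CPM and lies 11997 bases from the HOXD13 start. The LINC02086 interval that led HOXB had 41.9 and 35.5 CPM against 43.7 and 37.2, and the interval in the non-coding HOXB-AS3 near HOXB6 had 44.1 and 41.1 against 32.8 and 33.9 (-0.36 ± 0.18, adjusted p 0.12). The HOXB-AS3 interval was called lower with GC-corrected offsets (-0.62, adjusted p 0.011) and on total counts (-1.34, adjusted p 6.3e-06), and the LINC02086 interval on total counts (-0.93, adjusted p 0.00052). The HOXD3 intron was at -1.83 with GC-corrected offsets and -2.35 on total counts; the difference between the sites was not tested.

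At 4 strong sites, apart from the HOXC10 promoter given below, CTCF rose on the TMM scale, and with scaling to total counts none did. Between HOXA7 and HOXA9, the interval with the exact consensus had 67.5 and 56.4 CPM in vehicle and 96.9 and 110 in sorbitol (0.73 ± 0.14, adjusted p 0.00033). At HOXB8 to HOXB9 (chr17:48618592-48619441) it was 25.8 and 29.1 against 42.3 and 45.2 (0.68 ± 0.19, adjusted p 0.006), and upstream of HOXC8 it was 34.1 and 32.5 against 37.8 and 59.3 (0.54 ± 0.19, adjusted p 0.029). The HOXC5 promoter interval (chr12:54032093-54032901) had 30.9 and 35.7 against 57.2 and 55.6 (0.77 ± 0.17, adjusted p 0.0011). Sorbitol and vehicle libraries did not overlap at any of these 4. Scaled to total counts, the changes turned to -0.25, -0.30, -0.44 and -0.21, in that order of sites. With GC-corrected offsets the HOXA7 to HOXA9 (adjusted p 0.12) and HOXC8 (0.29) calls were lost, as was the HOXB8 to HOXB9 call without vehicle replicate 1 (adjusted p 0.096). The HOXC10 promoter, with 29.5 CPM per kb in vehicle, was called higher on the TMM scale (0.39, edgeR adjusted p 0.041). On total counts it was called lower (-0.59, adjusted p 0.0043), and with GC-corrected offsets it was at -0.14 (adjusted p 0.5).

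**Figure D3:**
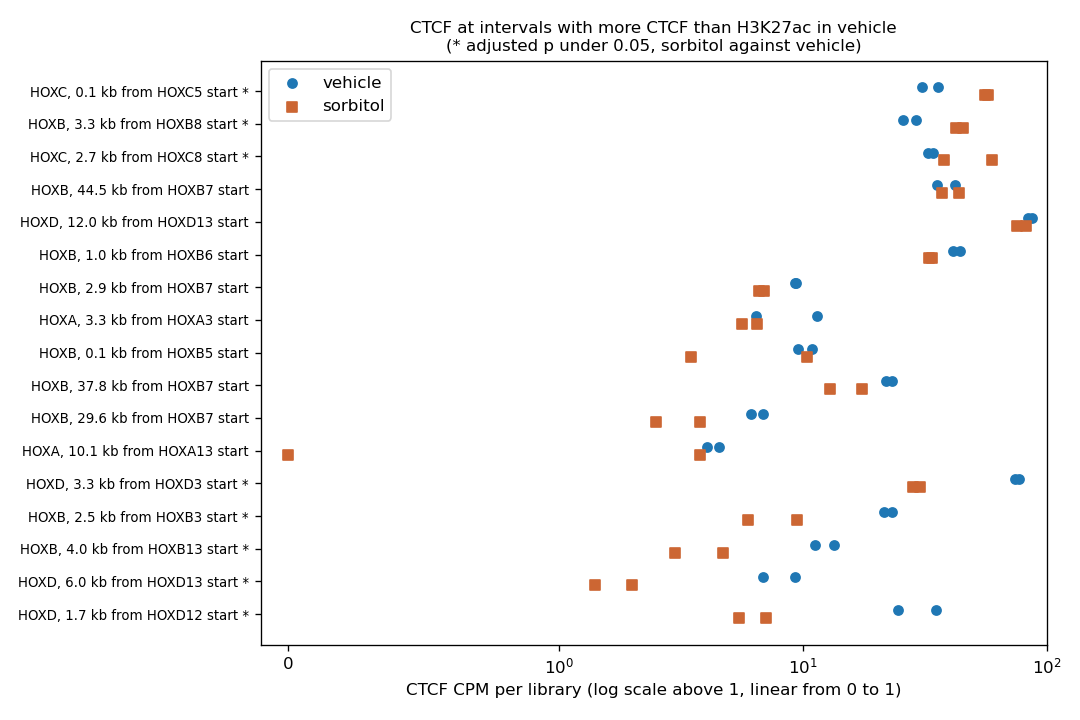
CTCF in each library (CPM, 2 vehicle circles and 2 sorbitol squares; log axis above 1 and linear from 0 to 1) at the 17 HOX intervals with more CTCF than H3K27ac in vehicle, named by cluster and distance to the nearest HOX start in kb and ordered by their change; an asterisk marks adjusted p under 0.05. The HOXD3 intron goes from 74.1 and 77.0 to 28.3 and 30.1, EVX2 (HOXD, 12.0 kb from the HOXD13 start) lies between 75.1 and 86.8 on this TMM scale and is called lower on total counts (-1.09) and with GC-corrected offsets (-0.98), and HOXC5 goes from 30.9 and 35.7 to 57.2 and 55.6, a rise that turns to a log2 change of -0.21 with scaling to total counts.

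At HOX promoters the direction of CTCF depended on the scaling. Of the 48 tested HOX promoter intervals 19 rose and 0 fell, with a median of 0.77. All promoter intervals had 29.1% higher, 10.4% lower and a median of 0.42. Of the 26 other HOX intervals 5 rose and 5 fell, with a median of -0.03. With DESeq2 13 HOX promoter intervals rose and 0 fell (27.1% higher), against 22.4% higher of all promoter intervals and 15.1% of all tested intervals. With scaling to total counts 3 rose and 7 fell, with a median of -0.21 (all promoter intervals: 6.28% higher, 36.6% lower). With GC-corrected offsets 14 rose and 0 fell, with a median of 0.24 (all promoter intervals: 13.8% higher, 15.8% lower). Vehicle levels were lower at the 4 intervals given next than at HOXA5 (33.4 CPM per kb), HOXB5 (30.8) and HOXC10 (29.5). At HOXC4 (chr12:54052303-54053728), a gene of the cervical segments, CTCF counts were 27 and 18 in vehicle and 46 and 31 in sorbitol, which is 4.03 and 4.09 CPM against 22.9 and 14.6 (2.19 ± 0.37, adjusted p 7.4e-05). At HOXA4 counts were 46 and 23 against 41 and 54, which is 6.86 and 5.23 CPM against 20.4 and 25.4 (1.90 ± 0.31, adjusted p 5.9e-05). At the HOXC4 interval with the most YAP1, CTCF went from 18.0 and 16.1 CPM to 41.8 and 48.5 (1.39 ± 0.2, adjusted p 1.5e-05). At HOXB7, one of the mid-cluster genes, it went from 4.62 and 4.09 CPM to 14.4 and 13.7 (1.67 ± 0.38, adjusted p 0.0014). The first 2 were still called higher with scaling to total counts (1.21 and 0.91), and the third (0.41, adjusted p 0.14) and HOXB7 (0.69, adjusted p 0.14) were not. The sorbitol libraries lay above the vehicle libraries at each of these 4 promoters, and the raw counts at HOXC4 and HOXA4 changed less than the CPM because the sorbitol libraries had smaller scaled sizes.

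The classes of the vehicle libraries give the same contrast, as a description, since those libraries also enter the change. Among the 17 CTCF-led HOX intervals 3 rose and 5 fell, with a median of -0.55, against 9.33% and 33.5% of all CTCF-led intervals and a median of -0.67. Among 53 tested H3K27ac-led HOX intervals 19 rose and 0 fell, with a median of 0.77, against 32.0% and 2.54% of all H3K27ac-led intervals and a median of 0.63. The HOX shares were thus near those of the same class in the whole table. Median GC content was 58.8% in the CTCF-led and 62.3% in the H3K27ac-led HOX intervals, and its part in the class difference was not tested beyond the GC-corrected fit, in which the medians were -0.77 and 0.33. On total counts they were -1.53 and -0.20.

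By cluster, CTCF rose at 8 and fell at 0 of 20 tested intervals in HOXA (median 0.74), and at 11 and 0 of 20 in HOXC (median 0.79). It rose at 4 and fell at 2 of 23 in HOXB (median 0.34), and rose at 1 and fell at 3 of 11 in HOXD (median 0.22). Scaled to total counts, the cluster medians were -0.25, -0.19, -0.63 and -0.76 in HOXA, HOXC, HOXB and HOXD. The 1 rise of HOXD was the HOXD1 promoter (1.68, adjusted p 0.018; not called with scaling to total counts, adjusted p 0.29), and the 4 of HOXB were in the HOXB7, HOXB8 to HOXB9, HOXB9 and HOXB3 intervals.

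Inside the clusters, median changes of the sequence classes set by the design differed by less than the spread between replicate libraries. Ratios of their counts inside a library separated for CTCF and H3K27ac, but the size of the CTCF separation depended on how the classes were set. The spread combines the replicate variances of the class difference in median log2 CPM, from 2 vehicle and 2 sorbitol libraries. A difference under it does not show that the classes are alike. The 10 intervals with the consensus had a median CTCF change of 0.56, with 4 higher and 0 lower, against 0.77 over 43 tested HOX promoter intervals without it. Of the 10 consensus intervals, 5 were themselves HOX promoter intervals. Promoters were those of HOX genes inside the clusters and of any gene over all intervals. HOX and whole-table differences are therefore not like for like. The difference was -0.22, under the spread of 0.26, and over the whole table it was -0.90. For RAD21 it was -0.16 (7 against 26 intervals, spread 0.31; whole table -0.81), for YAP1 0.01 (spread 0.23; 0.26) and for H3K27ac -0.10 (spread 0.24; 0.19). The log2 ratio of CTCF counts in consensus intervals to those in promoters without it, taken inside each library, was -0.69 and -0.69 in vehicle and -1.08 and -0.92 in sorbitol, with no overlap. For H3K27ac it was -2.82 and -2.83 against -2.93 and -2.99, also with no overlap. For RAD21 (-1.81 and -2.17 against -2.11 and -2.17) and YAP1 (-2.76 and -2.51 against -2.30 and -2.58) the libraries overlapped. The difference of the CTCF ratio between sorbitol and vehicle was -0.31. It shrank with a 2 kb promoter window, and little of it was left with no flank or with no mismatch allowed. At most 1 mismatch leaves out the HOXD3, HOXD12 and HOXB3 sites. With 2 allowed, an alternative added after seeing the data, the CTCF difference was -0.75 and that of H3K27ac changed sign.

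RAD21 passed at 0 of 45 tested HOX intervals (edgeR; 5 at an unadjusted p under 0.05, and 0 with DESeq2), against 4.79% of the whole table (4.26% with DESeq2), and the median change was 0.01 against -0.01. Without sorbitol replicate 1, 1 interval passed. At the HOXD3 intron RAD21 was 32.8 and 20.9 CPM in vehicle and 12.0 and 21.9 in sorbitol (-0.71, adjusted p 0.32), and the libraries overlapped. At the HOXB3 intron it was 20.1 and 24.0 against 8.6 and 9.94 (-1.23 ± 0.45, adjusted p 0.12), and at HOXD12 18.5 and 12.4 against 9.46 and 1.99 (-1.41 ± 0.61, adjusted p 0.18). The libraries did not overlap at these 2 intervals, in which CTCF fell, but neither passed. Between HOXA7 and HOXA9 RAD21 was 27.1 and 27.1 CPM against 25.8 and 28.8. The intervals at an unadjusted p under 0.05 included those of the HOXB3 intron and HOXD12, a LINC02086 intron at chr17:48671410-48672190 (-1.80) and HOXC9 (1.54). The RAD21 and CTCF responses differed at 0 of 86 tested intervals by the interaction term (edgeR; 8 at an unadjusted p under 0.05, and 0 with DESeq2; 0.830% of the whole table, and 0.699% with DESeq2), so a fall of CTCF with no call in RAD21 is not shown to be a difference between them.

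H3K27ac fell at many HOX intervals, mainly in HOXA and HOXC. Of 106 tested intervals 35 fell and 2 rose, against 14.5% lower and 8.59% higher in the whole table (23.1% called), and the median log2 change was -0.27 against 0.02. Scaled to total counts, 28 fell and 3 rose (10.4% and 14.3% of all tested intervals), with a median of -0.13 against 0.17. By cluster 16 of 27 intervals fell in HOXA (median -0.46) and 14 of 30 in HOXC (-0.40), with 0 rises in either. In HOXB 4 of 36 fell and 2 rose, and in HOXD 1 of 13 fell; both medians were -0.08 and turned to 0.06 and 0.07 with scaling to total counts. Of the 64 HOX promoter intervals 26 fell and 1 rose (40.6% lower), and of the 42 other tested intervals 9 fell and 1 rose. Among the H3K27ac-led intervals 40.2% of the 82 HOX intervals fell, against 26.1% of all such intervals.

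The largest fall was at the HOXA9 to HOXA10 interval chr7:27175152-27175760, which also had the highest vehicle CPM per kb among the promoter intervals given per gene. It had 80.0 and 78.7 CPM in vehicle and 30.5 and 30.6 in sorbitol, a log2 change of -1.38 ± 0.1 (adjusted p 9.8e-14). Beside it, chr7:27174431-27174658 in introns of HOXA9 and HOXA10 had 17.8 and 17.3 CPM against 16.7 and 17.7 (-0.03 ± 0.17, adjusted p 0.91). A HOXA9 interval over the antisense transcript HOXA10-AS (chr7:27168451-27168743) had 30.4 and 27.3 against 15.9 and 13.4 (-0.97 ± 0.16, adjusted p 1.1e-05). The fall was therefore not even along the HOXA9 and HOXA10 promoters. HOXA6 went from 77.1 and 68.7 CPM to 44.7 and 43.4 (-0.73, adjusted p 2e-07), and the interval between HOXA7 and HOXA9 from 94.3 and 91.5 to 60.4 and 50.7 (-0.74 ± 0.09, adjusted p 3.6e-08). A HOXA3 upstream start (chr7:27152759-27152958) went from 15.6 and 18.9 to 7.36 and 7.0 (-1.26 ± 0.21, adjusted p 2e-05).

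**Figure D4:**
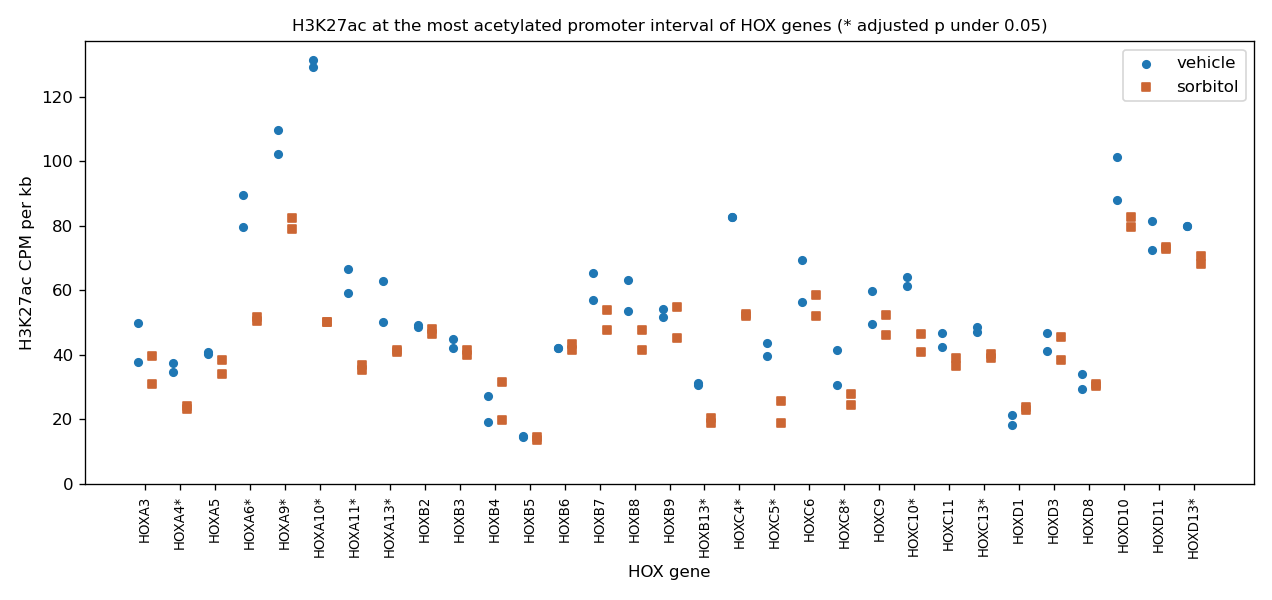
H3K27ac at the promoter interval with the most reads of HOX genes, as CPM per kb in each vehicle and sorbitol library. The interval shared by HOXA9 and HOXA10, drawn under HOXA10, has the highest vehicle level (130) and the widest gap between vehicle and sorbitol points (log2 change -1.38). The HOXA9 interval with the most reads is next (106).

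In HOXC falls were called at both ends of the cluster. HOXC4 at chr12:54036879-54037209 had 17.4 and 19.6 CPM against 9.82 and 9.09 (-0.96 ± 0.2, adjusted p 0.00027), and HOXC5 had 11.0 and 12.1 against 7.15 and 5.28 (-0.88 ± 0.25, adjusted p 0.0075; 0.096 with GC-corrected offsets and also 0.096 without sorbitol replicate 2). At the other end, beside HOXC13, chr12:53940440-53940712 had 10.0 and 10.3 CPM against 5.23 and 5.90 (-0.87 ± 0.26, adjusted p 0.011). The YAP1-rich HOXC4 interval had 116 and 116 CPM against 73.9 and 73.1 (-0.66 ± 0.08, adjusted p 1.4e-08). HOXC10, a gene of the lumbar segments, had 115 and 120 against 87.0 and 76.5 (-0.52, adjusted p 2.5e-06). Vehicle and sorbitol libraries did not overlap at any of these. In HOXD, HOXD11 had 251 and 223 CPM against 224 and 226 (-0.08, adjusted p 0.40), and HOXD13, the 1 call of HOXD, had 128 and 128 against 113 and 109 (-0.21, adjusted p 0.032), a call lost with GC-corrected offsets, which gave 0.02. HOXB13 had 62.1 and 60.8 against 40.8 and 37.3 (-0.65, adjusted p 4.2e-06).

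The 2 rises of H3K27ac were both in HOXB3. The promoter interval chr17:48589494-48589875 went from 8.6 and 11.2 CPM to 14.3 and 19.7 (0.77 ± 0.21, adjusted p 0.006). The intron interval chr17:48585131-48585981 went from 14.3 and 16.5 to 25.5 and 21.2 (0.61 ± 0.17, adjusted p 0.0072), and it is the interval where CTCF fell by 1.52 on the log2 scale. Either rise fails the threshold without vehicle replicate 1 (adjusted p 0.079 for the intron and 0.078 for the promoter), and also without sorbitol replicate 1 for the intron (0.12) or sorbitol replicate 2 for the promoter (0.16). At 3 other intervals with a CTCF fall H3K27ac was tested and did not pass. Of the 24 intervals where CTCF rose, 12 (50.0%) were among the 35 where H3K27ac fell (34.3% of these), among them the HOXC4, HOXA4, HOXA6 and HOXA7 to HOXA9 intervals. H3K27ac fell at 33.0% of all tested HOX intervals and at 40.6% of HOX promoter intervals, to which 19 of the 24 belong, and the 24 became 4 with scaling to total counts.

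YAP1 passed at 1 of 77 tested HOX intervals (edgeR; 11 at an unadjusted p under 0.05, and 1 with DESeq2), against 6.83% of the whole table (5.60% with DESeq2). The median change was 0.27 over HOX intervals and -0.04 over all tested intervals. The call was the intron interval of HOXA9 and HOXA10 at chr7:27174431-27174658, with counts of 8 and 4 in vehicle and 9 and 9 in sorbitol, which is 1.23 and 0.75 CPM against 5.09 and 7.21 (2.54 ± 0.73, adjusted p 0.041). Its counts are few, and it met the count filter only through the sorbitol libraries, where it was high, so the call is only a description. Scaling to total counts, to total counts without dominant intervals (4.01% of all tested intervals higher) or to the weakest 25% of intervals (4.15%) gave 0 HOX intervals called higher. Leaving out either vehicle library also gave 0. The leading YAP1 interval, at HOXC4, had 31.7 and 32.4 CPM in vehicle and 39.0 and 60.9 in sorbitol (0.61 ± 0.22, adjusted p 0.12). HOXD8, a mid-cluster gene, had 9.08 and 8.06 against 3.96 and 2.4 (-1.37 ± 0.52, adjusted p 0.14). HOXD13 had 21.7 and 20.2 against 26.0 and 13.6, and its libraries overlapped. On total counts the median of all tested YAP1 intervals moved to -1.46, and 38 HOX intervals passed, all lower (63.5% of all tested intervals).

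The H3K27ac response differed from the YAP1 response at 8 of 105 tested HOX intervals by the interaction term (6.27% of the whole table), and at 7 of these H3K27ac moved lower relative to YAP1 (2.54% of the whole table, with 3.73% higher), a direction that turned with scaling to total counts. At the YAP1-rich HOXC4 interval the difference was -0.90 ± 0.21 (adjusted p 0.0017). In HOXA the 5 differences were at HOXA6 (-1.35 ± 0.37, adjusted p 0.011), at HOXA7 to HOXA9 (-1.39 ± 0.39, adjusted p 0.028), at HOXA9 to HOXA10 (-1.34 ± 0.41, adjusted p 0.026) and at its intron neighbour, and at HOXA3. The 1 in the other direction was HOXD8 (1.68 ± 0.5, adjusted p 0.023), where H3K27ac was 41.3 and 47.8 CPM against 43.7 and 42.6. Scaled to total counts, 34 intervals passed, none lower (34.1% of all tested intervals higher). Without YAP1 sorbitol replicate 1 the difference turned to 0.33 at HOXA7 to HOXA9 and to 0.09 at HOXA9 to HOXA10, and the number called was 2. It was 4 without H3K27ac vehicle replicate 1 or sorbitol replicate 1, and 5 without YAP1 vehicle replicate 2.

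The weight of the clusters in each library needs no scaling between libraries, and its separation between conditions differed by target. HOXD held 26.7% and 27.9% of the CTCF counts in HOX intervals in the vehicle libraries and 15.6% and 17.1% in the sorbitol libraries, and HOXC 21.9% and 23.9% against 31.9% and 31.8%. For HOXA the CTCF shares were 21.1% and 19.3% against 26.3% and 26.4%, and for HOXB 30.3% and 29% against 26.2% and 24.7%. For H3K27ac the HOXA shares were 32.6% and 33.2% against 28.2% and 28.3%, and those of HOXB 22.5% and 22.5% against 26.4% and 26.3%. The vehicle and sorbitol libraries did not overlap in any of these 6. The RAD21 shares of HOXA (24.4% and 23.5% against 28.5% and 25.6%) and of HOXB (28% and 32.1% against 27.2% and 23.9%) also did not overlap, whereas those of HOXD (19.2% and 16.4% against 16.2% and 16.5%) did. The RAD21 shares of HOXC (28.4% and 28% against 28.1% and 34%) overlapped as well. The YAP1 share of HOXD was 15.5% and 14.6% against 13.8% and 9.9%, with no overlap. The other YAP1 shares overlapped: HOXA 24.5% and 27.4% against 31.5% and 26.5%, and HOXB 27.2% and 26.7% against 22.4% and 28.8%. For HOXC the YAP1 shares were 32.8% and 31.3% against 32.2% and 34.9%.

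**Figure D5:**
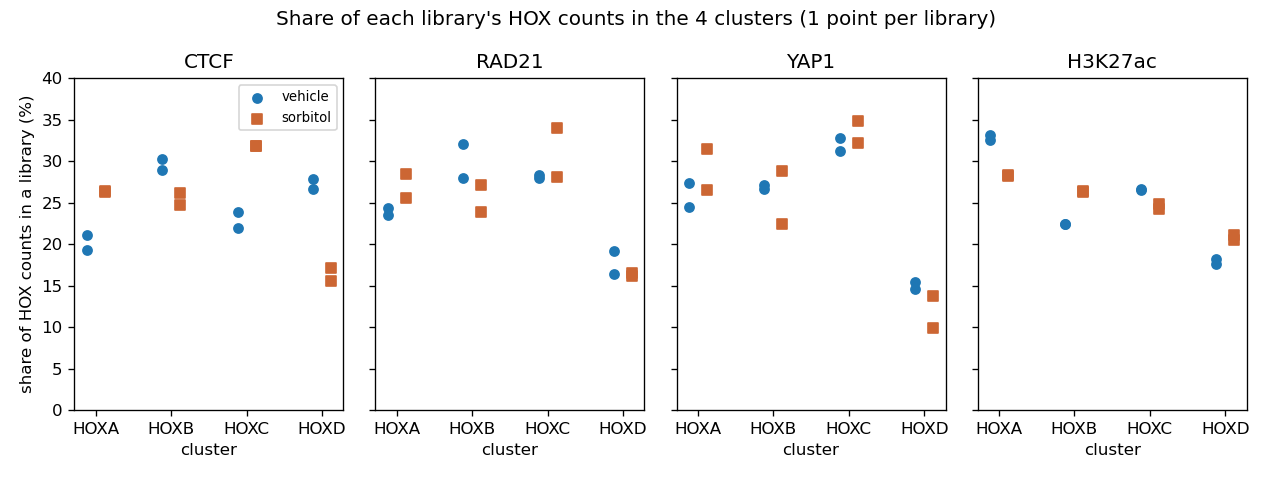
Share of each library's HOX counts held by HOXA, HOXB, HOXC and HOXD, in percent, with 1 point per library and the 4 targets side by side. The CTCF share of HOXD is 26.7 and 27.9 in vehicle and 15.6 and 17.1 in sorbitol, and the H3K27ac share of HOXA is 32.6 and 33.2 against 28.2 and 28.3.

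Ratios between clusters inside a library restate these shares. The log2 ratio of HOXD to HOXC counts was 0.29 and 0.22 in the CTCF vehicle libraries and -1.03 and -0.89 in the sorbitol libraries, and for H3K27ac it was -0.55 and -0.60 against -0.28 and -0.20. The ratio of HOXB to HOXA was 0.52 and 0.59 against -0.01 and -0.10 for CTCF, and -0.53 and -0.56 against -0.09 and -0.11 for H3K27ac. For RAD21 the HOXD to HOXC ratio was -0.56 and -0.78 against -0.79 and -1.04, and the HOXB to HOXA ratio 0.20 and 0.45 against -0.07 and -0.10. With HOXB and HOXD summed over HOXA and HOXC, a pairing chosen after the values were seen, the ratio was lower in both sorbitol libraries for CTCF (0.41 and 0.40 against -0.48 and -0.48), RAD21 (-0.16 and -0.09 against -0.38 and -0.56) and YAP1 (-0.42 and -0.50 against -0.81 and -0.67), and higher for H3K27ac (-0.54 and -0.58 against -0.18 and -0.15). Summed over classes, the CTCF-led intervals outside promoters over the H3K27ac-led promoters gave 0.22 and 0.31 against -1.02 and -0.84 for CTCF. The CTCF and H3K27ac vehicle libraries set these classes and also enter this ratio, so for those targets it is only a description. For RAD21 the same ratio was -1.27 and -1.53 against -2.48 and -2.08, with no overlap between vehicle and sorbitol libraries. For H3K27ac it was -4.08 and -4.10 against -3.68 and -3.74, and for YAP1 -3.38 and -3.25 against -3.14 and -2.71.

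Genes that work with HOX proteins or control them were read from lists of promoter intervals. Polycomb and trithorax genes, which keep HOX genes silent or active, had 32 intervals: H3K27ac fell at 19 and rose at 1 of 31 tested, with a median of -0.47, and CTCF rose at 18 and fell at 3 of 28, with a median of 1.05, which became 5 higher and 8 lower with scaling to total counts and 5 and 3 with GC-corrected offsets (median 0.21). Over all promoter intervals H3K27ac fell at 26.9% and rose at 9.94% (median -0.13), and CTCF rose at 29.1% and fell at 10.4% (median 0.42). EZH2, the histone methyltransferase of the Polycomb repressive complex, had H3K27ac at 175 ± 0.202 CPM in vehicle and 120 ± 1.08 in sorbitol (SD, n = 2 in each; edgeR adjusted p 5.5e-08). CBX8, a subunit of the other Polycomb complex, fell by 2.59 on the log2 scale at one interval (adjusted p 2.8e-06), and the rise was RNF2 (0.25, adjusted p 0.041). The CTCF falls were at CBX7, KDM6B and KMT2B. RAD21 rose at CBX7, the 1 call of 25 tested (4.79% called in the whole table). YAP1 rose at EZH2 (1.05, edgeR adjusted p 0.0071) and fell at MEN1 (-1.57, adjusted p 0.008), the only calls of 27 tested (6.83%). These few were named after their values were seen. Both rises were lost with scaling to total counts, where 0 intervals were higher for either target and 21 YAP1 intervals were lower. The RAD21 rise was also lost with GC-corrected offsets.

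The HOX cofactors, homeodomain partners of the PBX, MEIS and PKNOX families, had CTCF rises at 5 and falls at 0 of 13 tested intervals (PBX2, PBX3, PBX4, MEIS3 and PKNOX1), with a median of 0.76 that turned to -0.23 with scaling to total counts and was 0.30, with 1 rise and 2 falls, with GC-corrected offsets. The CTCF share of 29.1% higher over all promoter intervals is the base for this list too. Their H3K27ac fell at 4 of 32 (PKNOX1, PKNOX2, MEIS1 and PBX2) and rose at 1 (MEIS2), which became 1 lower and 7 higher with scaling to total counts. PKNOX1 had the largest fall, from 101 ± 0.238 CPM to 44.4 ± 1.16 (-1.19, adjusted p 1.7e-13), while the median of the list was -0.01. ParaHox genes and genes beside the clusters had intervals for 15 of 19 genes, with CTCF higher at 6 and lower at 1 (SNX10) of 18 and H3K27ac higher at 4 (LNPK, SKAP2, MTX2 and CALCOCO1) and lower at 3 (SMUG1, MNX1 and CBX5) of 21, against the same shares over all promoter intervals. On total counts 0 of these CTCF intervals rose and 6 fell, and with scaling to the weakest 25% of intervals H3K27ac rose at 1 and fell at 7. LNPK and MTX2, which flank HOXD, had H3K27ac changes of 0.29 and 0.48, while CBX5, near HOXC, had -0.85. For RAD21 and YAP1 0 intervals of either list passed.

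The libraries held 1.19 to 8.84 M counts each, and 0.379 to 8.41 M outside the few intervals that held over 0.1% of a library, and HOX intervals held 794 to 26457 counts. RAD21 and sorbitol YAP1 libraries were the shallowest, which limits their HOX values. HEK293 is known for kidney and neural developmental genes: GATA3 reached H3K27ac percentile 97.2 of all intervals, LHX1 82.6, PAX2 79.1 and NEFM 65.4. Of the markers of other tissues, PTPRC, CD3E and ALB had no interval and MYOD1 reached 54.8.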

How the data were processed

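CUT&Tag was measured in 16 HEK293 libraries (4 targets, vehicle or sorbitol, 2 libraries each). The deposited values are raw read counts over 74404 shared intervals on hg38. Per the submitters' processing notes the tools were Trim Galore, FastQC, BWA 0.7.17, SAMtools, Picard, bedtools 2.31.1 and MACS2 2.2.6; their roles, and whether peaks were called on pooled libraries, are not given in the sources used here. A count shared by reads that several intervals or copies could hold cannot be split here.

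The members, lists and tests were chosen with earlier results of these data known. Named intervals were, per cluster and target, the highest by CPM per kb, up to 5 rises and 5 falls per target, consensus intervals with the most CTCF, each HOX gene's promoter interval with the most H3K27ac, and interaction calls; other intervals were named after their values were seen. The values of 1 HOX gene and 1 marker gene are not reported here. All intervals were fitted in R 4.3.3 with edgeR 4.0.16 (limma 3.58.1) quasi-likelihood tests, 1 fit per target, TMM over tested intervals, filterByExpr at a minimum count of 10, and Benjamini-Hochberg adjustment over all tested intervals, threshold 0.05. CPM uses TMM-scaled library sizes. Alternatives were DESeq2 1.42.0 (local dispersion fit), other scalings, GC offsets (lowess span 0.3), no count filter, the replicate block, leaving out each library, other promoter windows (2 kb) and other consensus mismatch limits. Scaling without dominant intervals leaves out those over 0.1% of a library. Depth was 1.19 to 8.84 M counts per library, and the fits were tested on simulated data. Replicate numbers do not pair the libraries (correlations of same-numbered deviations from -0.009 to 0.006).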

Additional observations from a re-analysis of the deposited data

Results flagged for a closer look

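The H3K27ac and YAP1 responses to sorbitol differed at 8 HOX intervals by the interaction term, and the values are H3K27ac log2 change minus YAP1 log2 change. At HOXB13 (chr17:48724429-48724800) the difference was -3.56, with YAP1 counts of 2 and 2 in vehicle and 5 and 6 in sorbitol. At the HOXA3 upstream start it was -2.29, with YAP1 counts of 14 and 4 against 10 and 2. At the HOXA9 and HOXA10 intron interval it was -2.23, with YAP1 counts of 8 and 4 against 9 and 9. These 3 rest on few reads. At HOXA7 to HOXA9 the difference was -1.39, with YAP1 at 9.39 and 12.6 CPM against 32.2 and 7.21, so the sorbitol libraries stood on either side of the vehicle libraries. At HOXA6 (chr7:27150258-27150993) it was -1.35, with YAP1 at 4.46 and 7.31 CPM against 12.4 and 14.4 and H3K27ac at 73.3 and 70.6 against 52.9 and 48.4. At HOXA9 to HOXA10 it was -1.34, with YAP1 at 8.0 and 7.87 CPM against 14.1 and 4.0. At the YAP1-rich HOXC4 interval it was -0.90. At HOXD8 it was 1.68, where YAP1 was 9.08 and 8.06 CPM against 3.96 and 2.4.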

How the results depend on the processing

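CTCF calls numbered 16 to 28 without 1 library, RAD21 calls 0 to 1, YAP1 calls 0 to 4, H3K27ac calls 29 to 32, H3K27ac against YAP1 calls 2 to 7 and vehicle RAD21 against CTCF calls 8 to 26. With scaling to total counts RAD21 had 1 call, YAP1 38 and H3K27ac against YAP1 34, where DESeq2 gave 13. Scaling to the weakest 25% of intervals gave 60 H3K27ac calls (59 lower) and 0 YAP1 calls, and scaling without dominant intervals gave 0 YAP1 calls. The replicate block, with or without GC offsets, gave 0 YAP1 calls; same-numbered libraries did not deviate together, and the block otherwise gave 21 rises and 5 falls for CTCF and 2 and 36 for H3K27ac.

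The consensus minus promoter difference turned with GC offsets, with or without the replicate block, to 0.04 for CTCF and 0.14 for RAD21, and with GC offsets alone to -0.01 for YAP1. Without 1 library it ranged from -0.43 to 0.11 for RAD21, -0.32 to 0.20 for YAP1 and -0.19 to 0.00 for H3K27ac. With no mismatch, which leaves 1 HOX interval in the consensus class, it was 0.56 for YAP1 and -0.44 for H3K27ac, and with 2 mismatches (added after seeing the data) 0.07 for H3K27ac. The change of the consensus to promoter ratio was -0.01 (no mismatch), -0.16 (2 kb promoter window), -0.07 (no flank) and -0.75 (2 mismatches) for CTCF, -0.40 (no mismatch) and 0.11 (2 mismatches) for H3K27ac, and -0.33 to 0.04 without 1 library for RAD21. The causes were not tested.

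Scaled to total counts, CTCF changes turned to -0.61 at HOXC12, -0.54 at HOXC11, -0.30 at HOXB8, -0.78 at HOXA5, -0.25 at HOXA7 to HOXA9 and -0.24 at HOXA10, and the HOXC4 H3K27ac minus YAP1 difference to 0.32. HOXC11 was also -0.02 with GC offsets, -0.12 with these and the replicate block, and -0.35 to 0.93 without 1 library, lowest without sorbitol replicate 2; HOXA5 was -0.07 without dominant intervals and -0.00 with no count filter. Without 1 library the H3K27ac minus YAP1 difference ranged from -1.94 to 0.33 at HOXA7 to HOXA9 and from -1.84 to 0.09 at HOXA9 to HOXA10, in both highest without YAP1 sorbitol replicate 1. Of the other values of named intervals under the alternatives, 373 kept direction and side of the threshold, 67 kept direction and lost the call, and 7 gained it. RAD21 (794 to 2586 counts in HOX intervals) and YAP1 sorbitol libraries limit what could be called.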
